A study of Homo sapiens with 6 samples.

Results

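Interferon-stimulated genes were examined as a set of 40 named human genes, represented by every probe that the platform annotation gives to one of them. Of these, 38 had a probe, 58 probes in all, and 35 had a probe detected (detection p under 0.01) on at least 3 arrays, out of 8952 genes measured to that standard. RWPE-1 is an immortalised line of basal-like prostate epithelium that carries papillomavirus genes, so the data come from 1 line in which viral oncoproteins are present in both groups. The control group, LNA-Scr, was transfected with 100 nM of a scrambled oligomer (replicates A, B and C). The other group, LNA-205, received 100 nM of an antisense locked nucleic acid against miR-205 (replicates D, E and F). RNA was taken at 72 h and each sample was read on 1 Illumina bead array. Both groups received an oligonucleotide, and untransfected cells are not part of the comparison.

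Interferons are secreted proteins that cells release after sensing foreign nucleic acid. Type I and type III interferons act through receptors, the kinases JAK1 and TYK2, and a complex containing STAT2 and IRF9 that binds the interferon-stimulated response element in the promoters of its target genes. The products of these genes bind, cleave or trap viral RNA and proteins, and others amplify or shut off the signal.

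The oligomer in LNA-205 is directed against the microRNA below, shown from the RefSeq sequence at chr1:209432166-209432187 (GRCh38.p14, plus strand) because it is the named target of the oligomer; the arrays did not measure its silencing. Capitals mark the seed, bases 2 to 8.
hsa-miR-205-5p: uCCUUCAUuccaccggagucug

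Promoter stretches from 150 bases before to 20 bases after the start site are shown for DTX3L, RSAD2 and IFIT5, the members with the smallest p in the comparison below, and for IFIT1, a neighbour of IFIT5 on chromosome 10 with a difference of the opposite sign. All 4 lie on the plus strand of GRCh38.p14, at chr3:122564188-122564357 (DTX3L), chr2:6877627-6877796 (RSAD2), chr10:89392473-89392642 (IFIT1) and chr10:89414418-89414587 (IFIT5), and were taken from RefSeq. Capitals mark matches to a short form of the response element, GAAA, then 2 bases of any kind, then GAAA, or on the other strand TTTC, 2 bases of any kind, TTTC.
DTX3L: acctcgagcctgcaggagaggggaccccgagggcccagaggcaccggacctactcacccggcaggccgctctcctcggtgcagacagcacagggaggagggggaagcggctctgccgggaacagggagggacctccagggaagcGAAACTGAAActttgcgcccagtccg
RSAD2: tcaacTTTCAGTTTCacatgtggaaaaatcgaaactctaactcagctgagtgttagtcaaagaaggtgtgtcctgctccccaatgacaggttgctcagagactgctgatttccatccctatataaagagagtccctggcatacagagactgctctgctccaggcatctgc
IFIT1: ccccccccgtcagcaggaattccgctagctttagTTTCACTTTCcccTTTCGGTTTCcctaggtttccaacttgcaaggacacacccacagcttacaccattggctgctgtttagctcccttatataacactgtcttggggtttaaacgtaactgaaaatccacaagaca
IFIT5: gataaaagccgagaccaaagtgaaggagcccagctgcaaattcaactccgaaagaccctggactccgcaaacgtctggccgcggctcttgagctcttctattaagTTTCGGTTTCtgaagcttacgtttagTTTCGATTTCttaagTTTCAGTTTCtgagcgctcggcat

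The stretches hold 1 match in DTX3L, 1 in RSAD2, 2 in IFIT1 and 3 in IFIT5. Only start sites whose window held a match were printed. RSAD2 has another annotated start site, whose window at chr2:6865635-6865934 held 0 matches. Over windows of 300 bases around annotated start sites, 33 of the 40 genes had at least 1 window, and 22 of these 33 (66.7%) had a match in one. Of all 27305 genes with such windows, 4.38% had a match. Overlapping matches on either strand were counted. The windows of DTX3L and PARP9, genes that are read in opposite directions from neighbouring start sites on chromosome 3, share 137 bases, and the match at chr3:122564332-122564341 lies in both. A match describes the letters in the window and was not tested as a binding site.

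No interferon-stimulated gene passed the test between LNA-205 and LNA-Scr. DTX3L, RSAD2, IRF1 and IFIT5 had the largest departures relative to their error, with DTX3L, RSAD2 and IRF1 at higher and IFIT5 at lower values in LNA-205. Of the 35 measured genes, 31 had a higher and 4 a lower mean in LNA-205, with a median log2 difference of 0.14 that ranged from −0.76 (IFIT5) to 0.66 (DTX3L). Over all 10803 features tested, 49.8% were higher on average in LNA-205, where the median difference was −0.00. In the limma fit over all features, 0 of the 35 genes had a Benjamini-Hochberg adjusted p under 0.05, where 0.00926% of all features did (1 feature, which is not in the set). At an unadjusted p under 0.05 stood 4 of the 35 genes, or 11.4%, against 6.27% of all features. Both groups were fully separated, with no overlap of their values, for 10 of the 35 (28.6%), against 12.2% of all features, 8 higher (6.38% of all features) and 2 lower (5.78%). Among the 33 genes detected on all 6 arrays, which leaves out DTX3L and IFIT5, 2 (6.06%) had an unadjusted p under 0.05, close to the share of all features, and 8 (24.2%) did not overlap.

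The count of 31 genes with a higher mean depends on scaling and on single arrays. With arrays centred on the median of all probes in place of quantile normalization, 13 members were higher and 22 lower, while the median of all features moved to −0.16 and that of the members to −0.02. Under quantile normalization the count was 24 without LNA-Scr replicate A and 25 without LNA-205 replicate E, and the median difference was 0.06 and 0.08 without them. With 3 arrays per group, the unadjusted 95% interval of a single gene's log2 difference reached a median of 0.33 to each side. A difference smaller than that was mostly not detectable even at an unadjusted p under 0.05. The threshold on the adjusted p is stricter, and DTX3L at 0.66, IFIT5 at −0.76 and RSAD2 at 0.60 missed it. A p that misses the threshold does not show that levels were equal. In whole-culture RNA, fewer cells that carry a transcript and less transcript per cell cannot be told apart.

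**Figure D1:**
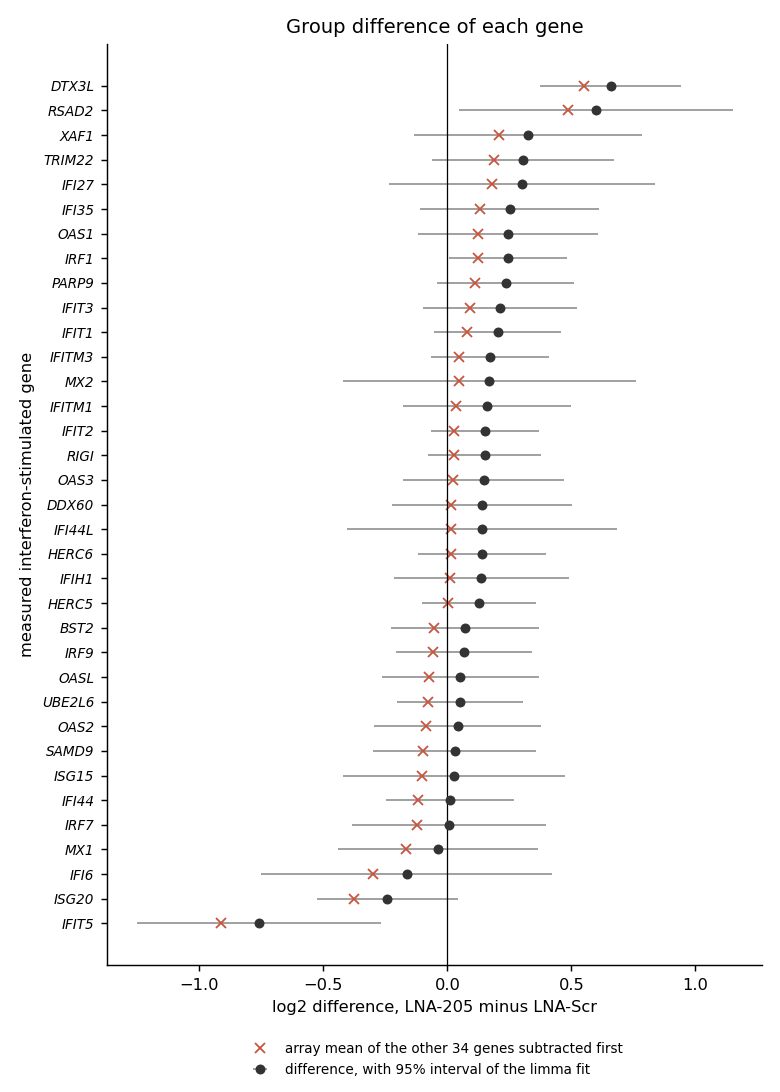
Log2 difference of each of the 35 measured genes (x axis, LNA-205 minus LNA-Scr; genes on the y axis in order of the difference). Filled points with bars are the difference and its 95% interval from the limma fit, and crosses are the difference once the array mean of the other 34 genes is subtracted; 31 points lie above 0 but 22 crosses do, and DTX3L, RSAD2 and IFIT5 stand at the ends in both.

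DTX3L and PARP9 encode an E3 ubiquitin ligase and its ADP-ribosyltransferase partner, which act as a complex in DNA repair and antiviral signalling. Normalized log2 intensities of DTX3L were 7.62, 7.72 and 7.53 in the control arrays, in the order A, B, C, and 8.10, 8.46 and 8.30 in LNA-205, in the order D, E, F. Every LNA-205 value lay above every LNA-Scr value. The log2 difference was 0.66 (SE 0.12, 95% interval 0.37 to 0.94, limma adjusted p = 0.426), and it was 0.38 without background correction and 0.39 on the authors' processed values. The probe is dim and was above background (detection p under 0.01) on 5 of the 6 arrays, all but LNA-Scr replicate C. With only 2 LNA-Scr arrays detected, it passed the filter of 3 arrays through LNA-205, and no fold is given. PARP9 had 10.41, 10.70 and 10.47 in LNA-Scr and 10.81, 10.85 and 10.63 in LNA-205, and replicate B lay above replicate F. Its log2 difference was 0.23 (SE 0.12, adjusted p = 0.793).

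The IFIT genes encode RNA-binding proteins that hold back viral translation. IFIT5 had values of 7.88, 8.72 and 8.01 in LNA-Scr and 7.60, 7.27 and 7.46 in LNA-205. All LNA-205 values lay below those of LNA-Scr, where replicate B stood far above the other two. The log2 difference was −0.76 (SE 0.21, 95% interval −1.25 to −0.27, adjusted p = 0.691). It was −0.43 without background correction, −0.44 on the authors' processed values and −0.50 without replicate B. IFIT5 was detected in all 3 controls but only in replicate F of LNA-205, so its values in LNA-205 lie near the limit of the measurement and no fold is given; the probe passed the filter through LNA-Scr.

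The other members of the family had differences of the opposite sign. IFIT1 differed by 0.20 (SE 0.11), IFIT2 by 0.15 (SE 0.10) and IFIT3 by 0.21 (SE 0.14), and in each the groups did not overlap. The margin was narrow for IFIT1 (11.5756 on replicate B, 11.5802 on replicate F) and IFIT3 (11.9759 on B, 11.9775 on F). For the other kept probes of IFIT1 and IFIT3 the groups overlapped. IFIT1 stood at 0.13 without replicate A and IFIT3 at 0.081 without replicate C. IFIT2 had the smallest spread of all 35 genes, with a within-group SD of 0.04. Adjusted p-values were 0.811 for IFIT1, 0.832 for IFIT2 and 0.836 for IFIT3.

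RSAD2 (viperin) is an antiviral enzyme that makes a chain-terminating nucleotide. Its values were 8.84, 9.08 and 8.09 in LNA-Scr and 9.16, 9.48 and 9.17 in LNA-205. The groups did not overlap, although replicate B lay close under the lowest LNA-205 array and replicate C was far below the rest. The log2 difference was 0.60 (SE 0.24, 95% interval 0.05 to 1.15, adjusted p = 0.774), and 0.31 without replicate C. CMPK2, a mitochondrial nucleotide kinase encoded beside RSAD2, was above background on 1 array, LNA-205 replicate F, and was not tested.

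Of the transcription factors in the set, IRF1, which is induced by interferon gamma and drives its own set of targets, had 10.50, 10.66 and 10.69 in LNA-Scr and 10.84, 10.93 and 10.81 in LNA-205. The groups did not overlap, and the log2 difference was 0.24 (SE 0.10, 95% interval 0.01 to 0.48, adjusted p = 0.790). IRF9, the DNA-binding part of the STAT complex, differed by 0.07 (SE 0.12). IRF7, which amplifies interferon production, differed by 0.01 (SE 0.17). STAT2 was not analysed here, since no probe carried its name in the annotation used, and the same holds for USP18, the protease that removes ISG15 and shuts off receptor signalling.

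**Figure D2:**
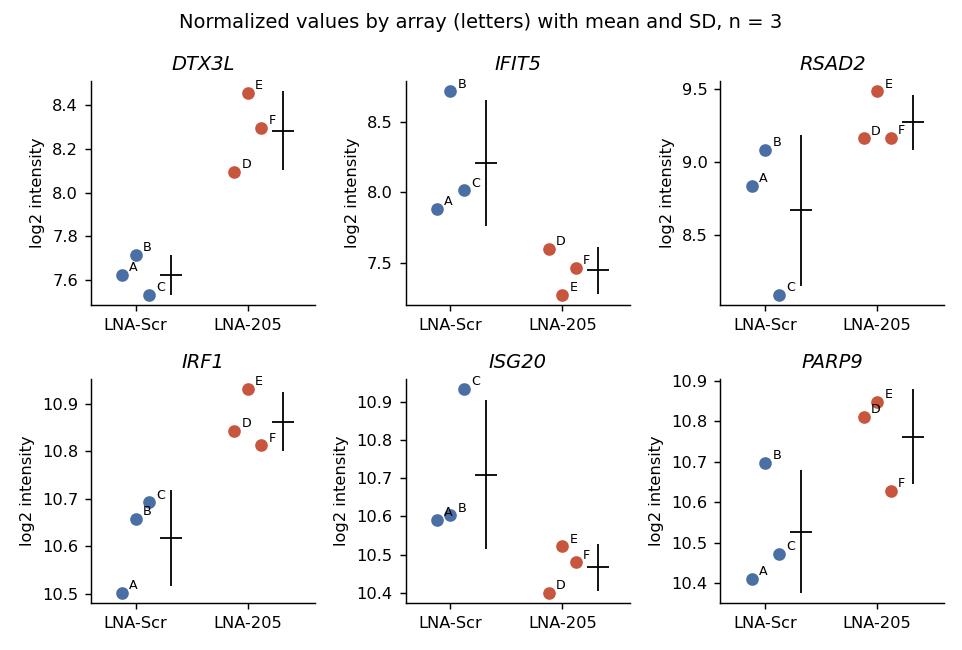
Normalized log2 intensity (y axis) on each array of the 6 genes with the smallest p, by group (x axis); letters name the replicate, and the bar beside each group is its mean and SD (n = 3). DTX3L, RSAD2 and IRF1 are higher and IFIT5 and ISG20 lower on all LNA-205 arrays, while PARP9 overlaps at replicates B and F.

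None of the cytosolic RNA sensors passed the test. RIGI, which binds short double-stranded RNA with triphosphate ends, differed by 0.15 (SE 0.10) without overlap of the groups. IFIH1 (MDA5), which binds long double-stranded RNA, differed by 0.14 (SE 0.15), and DDX60, a helicase linked with RIGI, by 0.14 (SE 0.16). Their 95% intervals reached up to 0.38 for RIGI, 0.49 for IFIH1 and 0.50 for DDX60. The oligoadenylate synthetases make the messenger that activates RNase L. Log2 differences of their brightest probes were 0.25 (SE 0.16) for OAS1, 0.04 (SE 0.15) for OAS2, 0.15 (SE 0.14) for OAS3 and 0.05 (SE 0.14) for OASL, and the groups overlapped in all 4.

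The ISG15 system conjugates a ubiquitin-like protein to newly made viral and host proteins. ISG15 itself had 12.45, 13.23 and 13.05 in LNA-Scr and 12.98, 12.82 and 13.01 in LNA-205. LNA-Scr replicate A was far below the other 5 arrays, and the log2 difference was 0.03 (SE 0.19, 95% interval −0.42 to 0.47). UBE2L6, its conjugating enzyme, differed by 0.05 (SE 0.11), HERC5, its ligase, by 0.13 (SE 0.10) and HERC6, a related ligase, by 0.14 (SE 0.11). ISG20, an exonuclease that degrades viral RNA, went against the majority. It had 10.59, 10.60 and 10.93 in LNA-Scr and 10.40, 10.52 and 10.48 in LNA-205, without overlap, and differed by −0.24 (SE 0.12, adjusted p = 0.793), or −0.13 without replicate C.

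MX1, a dynamin-like GTPase that blocks incoming virus particles, had 13.66, 14.35 and 13.98 in LNA-Scr and 13.83, 14.09 and 13.96 in LNA-205. The LNA-205 values lay inside the range of LNA-Scr, and the log2 difference was −0.04 (SE 0.18). MX2, its relative that acts against retroviruses, had 8.86, 9.53 and 8.68 in LNA-Scr and 8.81, 9.58 and 9.18 in LNA-205. Replicates B and E were alike and high, and MX2 had the largest within-group SD of the 35 genes, 0.42. Its log2 difference was 0.17 (SE 0.26).

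Among membrane restriction factors, IFITM3, which stops viruses in endosomes, had 14.40, 14.55 and 14.48 in LNA-Scr and 14.55, 14.73 and 14.66 in LNA-205, with replicates B and D nearly equal. The log2 difference was 0.17 (SE 0.10). IFITM1 differed by 0.16 (SE 0.15) and BST2 (tetherin), which holds budding virus at the cell surface, by 0.07 (SE 0.13). Since IFITM1 and IFITM3 resemble each other in sequence, a probe could read both transcripts, which was not tested.

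IFI27, IFI6 and IFI44L were among the 6 members with the largest within-group SD. IFI27 had 13.05, 13.92 and 13.38 in LNA-Scr and 13.68, 14.08 and 13.49 in LNA-205. Replicate B lay above replicates D and F, and the log2 difference was 0.30 (SE 0.23), with 0.10 without replicate A, 0.14 without replicate E and 0.54 without replicate B. IFI6 (12.33, 13.06 and 12.39 in LNA-Scr, and 11.94, 12.71 and 12.64 in LNA-205) held its highest value in LNA-Scr and its lowest in LNA-205, and differed by −0.16 (SE 0.26). IFI44L had 10.10, 10.75 and 10.51 in LNA-Scr and 10.60, 11.02 and 10.16 in LNA-205. Its groups overlapped over most of their range, with a log2 difference of 0.14 (SE 0.24). IFI44, with a within-group SD of 0.11, differed by 0.01 (SE 0.11). IFI35 differed by 0.25 (SE 0.16), or 0.076 without replicate E.

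The remaining measured members were SAMD9, a growth-restraining antiviral factor that differed by 0.03 (SE 0.14), XAF1, a pro-apoptotic protein at 0.33 (SE 0.20), and TRIM22, a ligase that restricts several viruses, at 0.31 (SE 0.16). Without replicate E, XAF1 stood at 0.16 and TRIM22 at 0.17. The chemokines CXCL10 and CXCL11, which draw T cells through CXCR3, stayed at background throughout, and no fold is given for them.

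Arrays of one group differed from each other in the set about as much as the groups did. Each gene was set against its own mean over the 6 arrays. The mean deviation of the 35 genes was −0.20, 0.11 and −0.09 on replicates A, B and C of LNA-Scr, and −0.00, 0.20 and −0.01 on LNA-205 replicates D, E and F. LNA-Scr replicate B lay above LNA-205 replicates D and F, so the groups overlapped. The mean log2 intensity of the 35 genes was 10.97 ± 0.15 in LNA-Scr and 11.10 ± 0.12 in LNA-205 (SD over arrays, n = 3 each), a difference of 0.12 against an SD of 0.14 between arrays of one group. The difference was 0.06 without LNA-Scr replicate A and 0.06 without LNA-205 replicate E. Over all 10803 features the same deviations lay between −0.01 and 0.01, as quantile normalization fixes them.

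The variation between arrays was shared by most members. Replicate A was the lowest of the LNA-Scr arrays for 23 of the 35 genes (65.7%) and for 34.1% of all features. Replicate B was the highest of LNA-Scr for 24 genes (68.6%, against 32.6% of all features), and replicate E the highest of LNA-205 for 27 genes (77.1%, against 31.0%). Of the summed squared deviations around the gene means, 24.1% belonged to shifts that all members shared between arrays of one group and 7.51% to the shared shift between the groups. Differences between genes in the size of the group difference made up 24.6%, and the remaining 43.8% was private to a gene and an array. The median correlation between members, after the group mean of each gene was removed, was 0.45 over the 6 arrays (4 residual degrees of freedom), against 0.00 over all pairs of features. These points share array and normalization, and the values are a description.

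**Figure D3:**
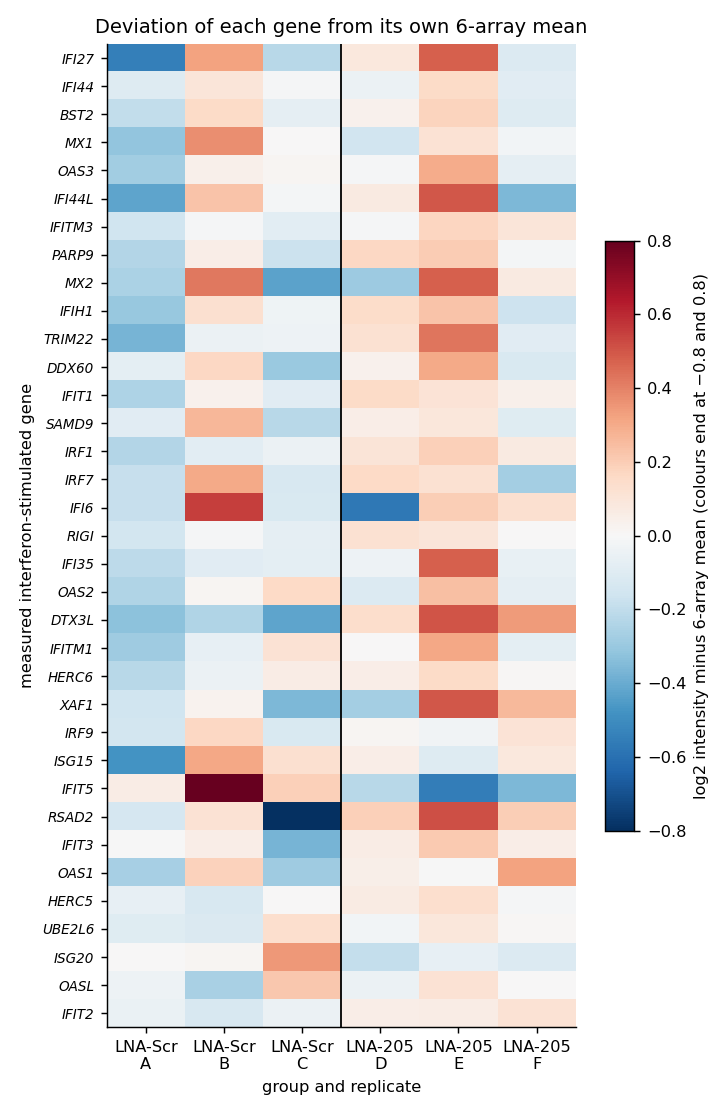
Deviation of each of the 35 measured genes (rows) from its own mean over the 6 arrays (columns, by group and replicate), in log2 units; red is higher, blue lower, and rows run from the gene most to the gene least correlated with the mean of the others. Replicate A is mostly blue and replicates B and E mostly red, across the line between the groups, and IFIT5 runs against the majority in LNA-205.

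Members differed in how closely they followed the others. The within-group correlation with the mean of the other 34 genes was above 0.5 for 26 of the 35, highest for IFI27 (0.98), IFI44 (0.95), BST2 (0.95) and MX1 (0.92). It was below 0 for 2 genes, IFIT2 (−0.73) and OASL (−0.30), and near 0 for ISG20 (0.00), UBE2L6 (0.05) and HERC5 (0.06). Subtracting the array mean of the other 34 genes lowered the within-group SD of 25 of the 35 and took the median SD from 0.19 to 0.15. By construction this also centres the set, and the median difference became 0.02, with 22 genes above and 13 below 0.

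After that subtraction 6 of the 35 genes did not overlap between the groups, where 12.2% of all features, with nothing subtracted, did not. DTX3L (0.55), RSAD2 (0.49), ISG20 (−0.38) and IFIT5 (−0.91) kept the direction they had before. PARP9 (0.11) and IFI44 (−0.12) had overlapped before it. MX1 stood at −0.17, IFI6 at −0.30 and IFI27 at 0.18 after the subtraction, each with overlap. These values come from the same arrays as the differences above and carry no test of their own.

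Of the 35 measured genes, 12 had more than 1 kept probe, and the probes of 8 had the same sign. A second UBE2L6 probe gave 0.29 (SE 0.11) without overlap, against 0.05 for the brightest one, and the other IFIT3 probes gave 0.47 (SE 0.19) and 0.06 (SE 0.13). The other OAS1 probes gave 0.029 (SE 0.24) and 0.027 (SE 0.26), against 0.25. The other PARP9 probe gave 0.08 (SE 0.25), against 0.23, and that of OASL 0.26 (SE 0.16), against 0.05. Other probes gave 0.10 (SE 0.13) for IFIT1, 0.0028 (SE 0.15) for OAS3 and 0.08 (SE 0.31) for IFI44L. Probes of OAS2, IFI6, IRF7 and XAF1 disagreed in sign. IRF7 had 0.01 and −0.31 (SE 0.15), XAF1 had 0.33 and −0.16 (SE 0.19), IFI6 had −0.16 and 0.09 (SE 0.24), and OAS2 had 0.04, −0.20 and −0.06. DTX3L, IFIT5, RSAD2 and IRF1 each rest on a single probe. With each of 13423 kept probes as its own feature, 0 of 50 member probes passed the threshold in limma, and 42 had higher and 8 lower means in LNA-205.

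**Figure D4:**
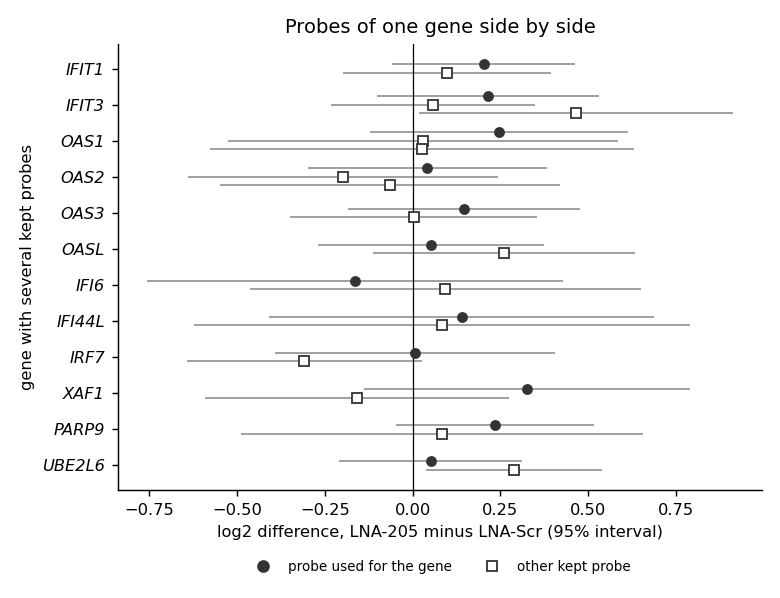
Log2 difference (x axis, LNA-205 minus LNA-Scr) of every kept probe of the 12 genes with several kept probes (y axis), with the 95% interval of the limma fit on single probes. Filled circles are the probe used for the gene and open squares the others; the intervals include 0 except for 1 other probe of IFIT3 and 1 of UBE2L6, and OAS2, IFI6, IRF7 and XAF1 have probes on both sides of it.

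The genes upstream of the set did not pass the test either. Of 9 interferon ligands, 8 had a probe that was not above background on any array, among them IFNB1, IFNA1, IFNG and the type III ligands IFNL1, IFNL2 and IFNL3. The exception was IFNE, a type I interferon made constitutively by epithelium of the female reproductive tract, detected on 5 of the 6 arrays. IFNE had 7.51, 7.52 and 7.23 in LNA-Scr and 7.78, 7.99 and 8.20 in LNA-205. All LNA-205 values were higher, with a log2 difference of 0.57 (SE 0.14, 95% interval 0.24 to 0.90, adjusted p = 0.609). The IFNE signal is dim, near that of DTX3L, and 12.2% of all features did not overlap between the groups in either direction.

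All 6 receptor chains were measured, 3 with higher and 3 with lower means and 0 past the threshold. IFNAR1 differed by 0.20 (SE 0.23), IFNAR2 by −0.11 (SE 0.12) and IFNGR2 by −0.17 (SE 0.10). Of the kinases and STATs, TYK2 differed by −0.15 (SE 0.10), STAT3 by 0.18 (SE 0.13) and JAK1 by 0.00 (SE 0.11). Among nucleic acid sensors and their adaptors, 14 of 20 passed the detection filter, 5 higher and 9 lower, with a median of −0.15 and 0 past the threshold. STING1, the adaptor for cytosolic DNA, differed by −0.32 (SE 0.14), DHX58, a regulator of RIGI, by −0.35 (SE 0.17), TRAF3 by −0.24 (SE 0.15), EIF2AK2 (PKR), a kinase that halts translation, by 0.17 (SE 0.14) and ADAR, an RNA editor, by −0.03 (SE 0.11). TLR7, TLR8 and TLR9 were not above background on any array. The negative regulators had 6 of 10 measured, all with higher means (median 0.08) and 0 past the threshold. PIAS1 differed by 0.22 (SE 0.12), PTPN2 by 0.13 (SE 0.12), TNFAIP3 by 0.19 (SE 0.36) and PTPN11 by 0.00 (SE 0.12).

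A further list of 33 interferon-induced genes outside the set had 26 measured, 14 with higher and 12 with lower means in LNA-205, a median of 0.01 and 0 past the threshold. PARP14, a relative of PARP9, had 9.52, 9.51 and 9.62 in LNA-Scr and 9.89, 9.83 and 9.90 in LNA-205, without overlap, and differed by 0.32 (SE 0.10, adjusted p = 0.691). TNFSF10 (TRAIL) differed by 0.57 (SE 0.25), LY6E by −0.25 (SE 0.10) and IFITM2 by −0.10 (SE 0.11). The mean deviation of these 26 genes was −0.07, 0.05 and −0.03 on replicates A, B and C and 0.02, 0.09 and −0.06 on replicates D, E and F. By these means replicates A and E were the lowest and the highest in this list as in the set of 35, over a smaller range. By the median deviation, replicate F (−0.084) lay slightly below replicate A (−0.080). The median correlation between the genes of this list was 0.08.

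Targets of NF-kB, a factor that the same sensors activate, varied between arrays in another order. Measured were 6 of 10, with 4 means above and 2 below LNA-Scr and 0 past the threshold. Their mean deviation was −0.68, 0.05 and 0.34 on replicates A, B and C and −0.19, −0.00 and 0.48 on replicates D, E and F, so that replicates C and F stood highest. Shifts shared between arrays of one group made up 70.4% of their summed squared deviations, against 24.1% in the set of 35. The median correlation between these targets was 0.77, against 0.45 in the set, so shared array variation was not particular to the set. IL6 had 8.59, 9.71 and 10.23 in LNA-Scr and 9.45, 9.79 and 10.16 in LNA-205, and differed by 0.29 (SE 0.38). CXCL8 differed by 0.29 (SE 0.36), CCL5 by 0.53 (SE 0.29), NFKBIA by −0.03 (SE 0.30) and IL1B by −0.08 (SE 0.15). LNA-Scr replicate A was low in the NF-kB list, in the 26 further genes and in the 35 genes of the set.

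**Figure D5:**
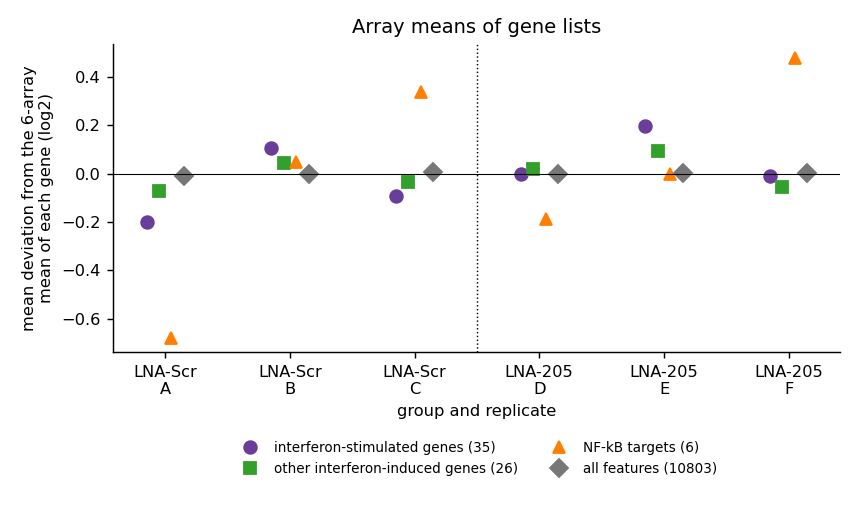
Mean deviation of 3 gene lists and of all features from the 6-array mean of each gene (y axis, log2) on each array (x axis, group and replicate), 1 point per list and array. The 35 interferon-stimulated genes are lowest on replicate A (−0.20) and highest on replicate E (0.20). The 26 further interferon-induced genes are also lowest on A and highest on E, over a smaller range with F close to A, and the 6 NF-kB targets are highest on replicates C and F.

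Between 12585 and 14195 of 48799 probes were above background on an array, and between 47 and 51 of the 58 member probes. Markers of basal epithelium were present, with KRT5, KRT14 and ITGB4 detected on all 6 arrays, as were CDH1 and EPCAM. Of 6 luminal markers, KRT8 (0.04, SE 0.11) and KRT18 (−0.28, SE 0.18) were measured, and KLK3 and TMPRSS2 were at background on every array. Of 12 immune markers, CD14 and CD68 were measured, with summed normalized intensity from 3520 to 4068 in LNA-Scr and from 4129 to 4688 in LNA-205, and PTPRC, ITGAM, CD163, HLA-DRA, CD3E and CLEC4C were not above background on any array. CD14 differed by 0.31 (SE 0.17) and CD68 by 0.20 (SE 0.11). The samples come from the RWPE-1 line, and the source of the CD14 and CD68 signal was not tested. None of the 5 fibroblast and 3 endothelial markers passed the detection filter.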

How the data were processed

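Biotinylated cRNA of 6 samples was hybridised to single-colour Illumina arrays, per the labels' protocols. The deposited unnormalized table holds log2 intensities and, per the file headers, a detection p-value beside each. A second deposited table, the authors' processed log2 values, served for an alternative and follows a normalization not given in the sources used here. Its values ranked the probes of each array as the unnormalized table did (lowest Spearman correlation 1). For replicate E all 48799 values were identical in both tables, so this alternative is not independent of the unnormalized values. The tool lumi is named without a role per the submitters' processing notes. Values were background-corrected, offset by 16, quantile normalized and log2 transformed with limma's neqc. Probes with a detection p under 0.01 on at least 3 of 6 arrays were kept, 13423 of 48799, and the brightest probe stood for a gene, which gave 10803 features. Symbols came from the platform annotation, taken over from RefSeq by gene identifier for 28056 of the 28095 probes with 1 symbol. Groups were compared with limma 3.58.1 in R 4.3.3 (two-sided, Benjamini-Hochberg over 10803 features, threshold 0.05). The fit was tested on simulated data with planted group differences larger than that of any member. Detection of differences as small as those of the members was not tested. The 3 transfections per group share 1 cell line, so p-values measure the spread between them, and the number of arrays limits the precision.

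The members and lists were chosen with earlier results of these data known. All 40 members are named; all 6 array values are given for those with the smallest p (6), the largest within-group SD (6) and the brightest signal (4). Of the other lists, those with the smallest p and the brightest are named. IFNB1, the other undetected genes, the second probes and the members singled out for their correlation were named after their values were seen. Alternatives covered background, normalization, detection filter, probes per gene, array weights and each array left out.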

Additional observations from a re-analysis of the deposited data

How the results depend on the processing

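No member passed the threshold under any of the alternatives run, including each array left out. No paired analysis was possible because each replicate letter occurs in 1 group only. The 1 feature past the threshold over all features was lost (0 features) without a detection filter, with probes averaged per gene, with every probe as its own feature and without any 1 array (0 to 0). Centring arrays on the median of all probes, in place of quantile normalization, shifted the median of all features by −0.16. There the median of the members was −0.019 (0.14 relative to that shift), the mean difference −0.038, 13 members had a higher mean and 4 of 35 did not overlap, where 17.5% of all features did not. Centring on the kept probes, chosen after seeing the data, gave a median of 0.13 and 29 higher members. The cause was not tested. Without 1 array, 24 to 32 members had a higher mean, the median difference was 0.06 to 0.19, and 10 to 14 members did not overlap, where 20.4% to 23.8% of all features did not.

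Some single genes changed sign. Relative to the shift, centring on all probes gave −0.011 for IFI44, while ISG15 kept its sign at 0.0083. With that shift left in, 22 members had a lower mean. Centring on kept probes, with its own shift of −0.014 left in, gave −0.0061 for ISG15 and −0.026 for IFI44. The mean of a gene's probes gave −0.074 for OAS2 and −0.15 for IRF7. With the array mean of the other members subtracted, ISG15 stood at −0.10, OAS2 at −0.086, OASL at −0.075, IFI44 at −0.12, IRF7 at −0.12, IRF9 at −0.059, BST2 at −0.054, SAMD9 at −0.10 and UBE2L6 at −0.076. Without 1 array, differences ran from −0.20 to 0.19 for ISG15, −0.20 to 0.14 for MX1, −0.027 to 0.43 for MX2, −0.18 to 0.31 for OAS1 (another probe was the brightest without replicate B), −0.069 to 0.13 for OAS2, −0.064 to 0.17 for OASL, −0.30 to 0.079 for IFI6, −0.061 to 0.061 for IFI44, −0.072 to 0.35 for IFI44L, −0.081 to 0.16 for IRF7, −0.0056 to 0.17 for BST2 and −0.073 to 0.17 for SAMD9. DTX3L, IFIT5, RSAD2, IRF1, ISG20 and PARP9 kept their sign under every alternative that measured them, but not their size: without background correction DTX3L stood at 0.38, IFIT5 at −0.43 and RSAD2 at 0.43. Among members that kept their sign without 1 array, ranges that moved by over 1.5 times included 0.0071 to 0.13 for UBE2L6, 0.013 to 0.17 for IRF9, 0.020 to 0.26 for IFIH1, 0.024 to 0.26 for DDX60, 0.034 to 0.22 for OAS3, 0.043 to 0.25 for IFITM1, 0.076 to 0.34 for IFI35, 0.10 to 0.54 for IFI27, 0.16 to 0.54 for XAF1 and 0.17 to 0.43 for TRIM22.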
